A study of Mus musculus with 8 samples.

Results

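The immediate early response genes *Fos*, *Fosb*, *Fosl1*, *Jun*, *Junb*, *Egr1*, *Atf3*, *Ier2*, *Ier3* and *Dusp1* were followed library by library in a mouse medullary thymic epithelial cell (mTEC) line and in its *Aire*-mutant clone, without and with adhesion of thymocytes. They are 10 of the 24052 gene symbols listed in the count files, were taken by symbol and not by their values, and all 10 were among the 11672 genes with enough counts for testing. The RNA-Seq data comprise 8 libraries, 2 in each of 4 conditions. WT cells are the mTEC 3.10 line with wildtype *Aire*, and E6 cells are a single clone of that line that went through Crispr-Cas9 editing of *Aire* exon 3 and single cell culture, so a difference between E6 and WT is a difference between 1 clone and its parent line. The labels give the E6 genotype as Aire +/-, whereas the study describes indels on both alleles. All libraries are from C57BL/6-derived cells at passage 2. The libraries called before adhesion had no co-culture, and those called after adhesion had 12 h of co-culture with C57BL/6 thymocytes at 50 thymocytes per mTEC, followed by washing and trypsin treatment. By their labels 5 libraries were cultured for 12 h and 3 for 24 h, the latter being replicate 2 of WT after adhesion and replicate 1 of E6 before and after adhesion. Nothing in the labels says that the 2 replicates of a condition were separate cultures, so the p-values measure the spread between these libraries, which may be technical.

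Immediate early genes are transcribed within minutes of a signal at the cell surface, without the need for new proteins, and many of their mRNAs are quickly degraded again. Growth factors, adhesion, cytokines and stress reach them through MAP kinases, which activate factors already bound at their promoters. Proteins of the Fos and Jun families pair into the transcription factor AP-1, while *Dusp1* encodes a phosphatase that switches MAP kinases off. In the thymic medulla, thymocytes signal to epithelial cells through receptors such as RANK and CD40, which activate NF-kB and MAP kinases. The libraries after adhesion were taken after 12 h of co-culture and not within the first minutes of contact.

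To show what lies before these genes, the 250 bases upstream of the RefSeq start (GRCm38.p6) were taken for those 7 of the 10 with a usable entry, and searched on both strands for known sites. The 4 printed here belong to the genes that the results turn on, and capitals mark every site found. The promoters of *Fos* (chr12:85473640-85473889, plus strand), *Fosb* (chr7:19310046-19310295, minus strand), *Jun* (chr4:95052223-95052472, minus strand) and *Dusp1* (chr17:26508473-26508722, minus strand) read 5′ to 3′ as follows.
Fos: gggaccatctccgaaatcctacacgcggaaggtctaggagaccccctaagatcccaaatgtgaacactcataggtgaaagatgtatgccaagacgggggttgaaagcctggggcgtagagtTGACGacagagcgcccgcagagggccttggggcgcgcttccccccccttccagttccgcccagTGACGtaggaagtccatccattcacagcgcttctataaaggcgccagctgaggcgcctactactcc
Fosb: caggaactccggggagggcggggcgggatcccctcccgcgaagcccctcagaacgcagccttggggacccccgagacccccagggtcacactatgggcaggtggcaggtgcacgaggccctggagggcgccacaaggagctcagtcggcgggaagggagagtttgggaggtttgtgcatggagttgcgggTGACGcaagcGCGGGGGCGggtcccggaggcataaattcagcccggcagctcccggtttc
Jun: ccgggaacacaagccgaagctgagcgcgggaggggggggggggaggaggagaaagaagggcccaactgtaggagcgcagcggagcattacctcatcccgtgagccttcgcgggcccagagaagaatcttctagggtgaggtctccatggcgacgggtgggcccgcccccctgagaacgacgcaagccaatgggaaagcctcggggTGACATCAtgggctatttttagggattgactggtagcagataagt
Dusp1: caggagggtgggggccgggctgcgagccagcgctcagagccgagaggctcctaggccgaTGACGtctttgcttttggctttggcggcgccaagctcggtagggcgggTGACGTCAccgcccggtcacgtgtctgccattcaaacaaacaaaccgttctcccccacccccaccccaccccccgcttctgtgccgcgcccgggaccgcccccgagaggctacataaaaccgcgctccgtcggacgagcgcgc
The cAMP response element (CRE) TGACGTCA, bound by CREB and ATF proteins, was found in *Dusp1*, at position -143 from the start, and in 1.55% of 32851 mouse promoter windows of this length. Its 5 letter core TGACG, which every full CRE also holds, was found in *Fos* (at -129 and -66), *Fosb* (at -60), *Dusp1*, *Junb* and *Atf3*, and in 17.8% of all windows. *Jun* held TGACATCA, a variant of this site, at -45 (2.93% of windows), and *Fosb* held the EGR site GCGNGGGCG at -50 (4.7% of windows). The AP-1 site TGANTCA (6.75% of windows) and the CArG box of serum response factor (1.47% of windows) were not found in these 7 windows. Sites further upstream, and the promoters of *Egr1*, *Fosl1* and *Ier2*, were not searched, so these genes may still hold such sites. A match is a description of letters and was not tested for binding.

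Gene counts summed to 13506610 in the smallest and 20145154 in the largest library, and 3 counts corresponded to 0.149 to 0.222 CPM (counts scaled to library size, here with TMM factors), which covers counting error only. Replicate 1 of WT after adhesion stood apart, since genes took 66.7% of its alignments, compared with 75.7% to 78.8% elsewhere. It also under-counted GC-rich genes, with a slope of -0.46 on the log2 scale per 10% of GC content, where the 7 remaining slopes were -0.01 to 0.15. Transcripts of the 10 genes hold 51.9% to 62.6% GC, so the calls on the members that rest on WT after adhesion are also given without this library. The summed level of 8 epithelial markers was 3994 to 5246 CPM in all libraries. Among these markers *Krt5* was low, at 0.213 to 1.02 CPM, and *Krt19* had at most 44 counts in a library. The mature mTEC markers *Aire*, *Fezf2*, *Cd80*, *Ccl21a* and *Tnfrsf11a* together did not exceed 0.896 CPM. These libraries are thus epithelial but lack the markers of mature mTECs. In the exons, *Fosl1* overlaps *Ccdc85b* on the opposite strand over 1163 bases and *Junb* overlaps *Prdx2* over 173 bases, and the strand setting of the counting is not given in the sources used here, so reads there may be shared or lost.

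After adhesion, *Jun* was DE by the test averaged over both cell types (1.51-fold), as the mean of a log2 FC of 1.37 in WT and of -0.19 in E6. This call was lost in 7 of the 8 fits without 1 library, with no filter on low counts and with culture time as a term (FDR 0.0694 in edgeR's test). *Fos* and *Dusp1* had larger averaged differences that missed the threshold. Before adhesion, *Fosb* and *Jun* were higher in E6 than in WT, by 3.04-fold and 1.96-fold. After adhesion *Jun* was 1.51-fold lower in E6 than in WT. The WT libraries before adhesion are shared by the adhesion comparison in WT and by the comparison of E6 with WT before adhesion, so these are not independent. DE mRNAs were defined by a Benjamini-Hochberg FDR under 0.05 in edgeR's quasi-likelihood test over all tested genes and an FC of at least 1.5. By this definition 1 of 10 members was DE in the averaged adhesion comparison, where 1.89% of all tested genes were DE. At an unadjusted p under 0.05, 5 members were higher and none was lower, against 9.89% of tested genes in all, 7.2% higher and 2.69% lower. The members with a positive log2 FC numbered 9, against 50.9% of tested genes, and their median log2 FC was 0.42, against 0.00 over all tested genes. Without replicate 1 of WT after adhesion *Dusp1*, *Fos*, *Jun* and *Junb* were DE, all higher, where 4.23% of tested genes were DE, and without replicate 2 *Dusp1*, *Egr1* and *Fos* were, where 11.2% were.

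In WT cells none of the 10 members was DE after adhesion, as was the case for all 11672 tested genes in edgeR's test. An unadjusted p under 0.05 was reached by 5 members, all higher, and by 873 tested genes (7.48%), with 5.57% higher and 1.91% lower. The DESeq2 Wald test called 64 genes (0.548%), and 3 of them were *Dusp1*, *Fos* and *Jun*. In 8 members both libraries after adhesion lay above both libraries before, as did 16.6% of tested genes, and all 10 had a positive log2 FC, against 52.8%. The median log2 FC in WT was 0.79 over the members and 0.02 over all tested genes. In E6 cells none of the 10 was DE by either tool in the fits of all 8 libraries. By edgeR 2% of tested genes were DE there (1.93% higher and 0.0771% lower). An unadjusted p under 0.05 was reached by 3 members (6.97% of tested genes), by *Dusp1* and *Ier3*, both higher (5.68% of tested genes), and by *Fosb*, lower (1.29%). There 4 members lay above without overlap, against 23.6% of tested genes, and 1 lay below, against 31.5%. A positive log2 FC was found for 6 members, against 44.6%. The median log2 FC in E6 was 0.14 over the members and -0.02 over all genes. With only the 4 E6 libraries in edgeR's fit, *Dusp1* and *Fos* were DE and higher, and *Fosb* was DE and lower. In that fit 537 of 11409 tested genes were DE.

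Before adhesion 2 of 10 members were DE between E6 and WT, both higher, against 5.01% DE among tested genes, 2.45% higher and 2.56% lower. At an unadjusted p under 0.05, 4 members were higher and none lower, against 21.6% of tested genes in all, 11% higher and 10.6% lower. All 10 members had a positive log2 FC (48.7% of tested genes), with a median of 0.54 against -0.00, and 6 were higher without overlap between the libraries, against 35.4% of tested genes higher and 35.5% lower. Without replicate 1 of E6 before adhesion, which had 24 h of culture, 7 members were positive and 3 negative, with a median of 0.21. Without its replicate 2 all 10 were positive, with a median of 0.81. After adhesion 1 of 10 members was DE between E6 and WT, against 8.91% of tested genes, and it was lower, as were 4.06%, where 4.85% were higher. No other member had an unadjusted p under 0.05, which 29.7% of tested genes reached (14.5% higher and 15.2% lower). Without overlap, 2 members were higher (26.8% of tested genes) and 1 lower (25.3%). Without replicate 1 of WT after adhesion 4 members were DE, with *Fosl1* higher in E6 (log2 FC 0.67) and *Atf3* (-0.91), *Dusp1* (-1.12) and *Jun* (-0.65) lower, where 15.6% of tested genes were DE. Without replicate 2 *Fos*, *Fosb*, *Ier3* and *Junb* were higher and *Egr1* was lower, where 37.7% of tested genes were DE. In the test of the difference between the adhesion effects (E6 minus WT) no member and no other gene was DE by edgeR. The unadjusted p was under 0.05 for *Jun* and *Fosb* and for 297 genes (2.54%, with 1.01% lower), and the DESeq2 Wald test called 3 genes (0.0257%), 1 of which was *Jun*. Without replicate 1 of WT after adhesion 5 members were DE for the difference, *Atf3*, *Dusp1*, *Fos*, *Fosb* and *Jun*, all lower, with log2 values from -1.63 (*Jun*) to -1.11 (*Fosb*), where 1.22% of tested genes were DE (0.572% lower). Without replicate 2 *Egr1*, *Fosb*, *Fosl1* and *Jun* were lower and *Junb* was higher, where 25.6% of tested genes were DE. In these fits the lone WT library after adhesion was assumed to vary like the other conditions.

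**Figure D1:**
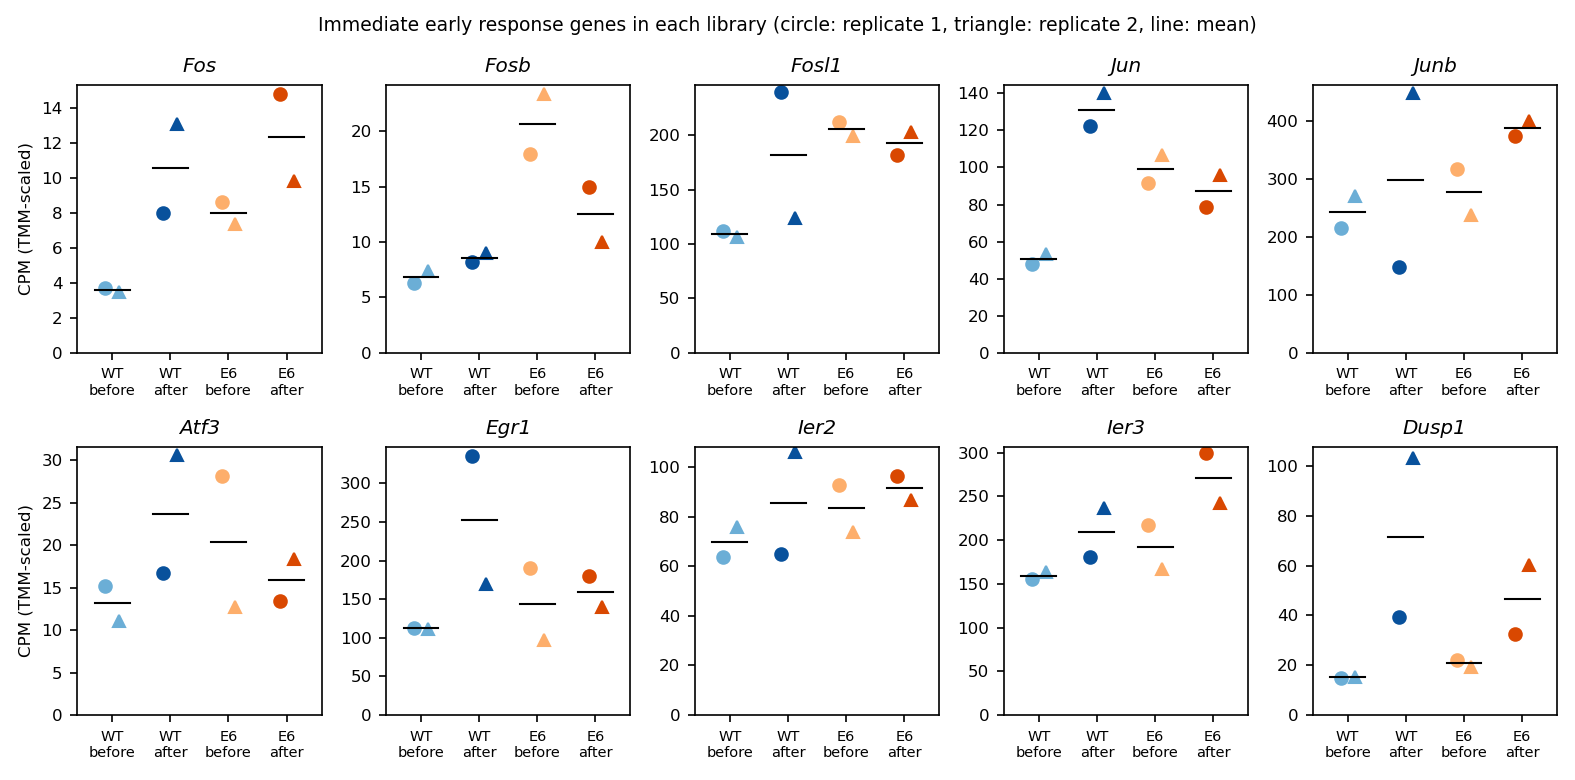
Level of each immediate early response gene in CPM (TMM-scaled, vertical axes from 0) in the 2 libraries of each condition, with circles for replicate 1, triangles for replicate 2 and lines for the mean. *Jun* in both WT libraries after adhesion (122 and 140.2 CPM) lies above all other libraries, *Fosb* is highest in E6 before adhesion (17.9 and 23.4 CPM), and *Junb* spans its widest range between the 2 WT libraries after adhesion (148 and 447 CPM).

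The Fos family members are the AP-1 partners of Jun proteins. *Fos* (chromosome 12, 85473890 to 85477273, plus strand) encodes the founding member and is the classical marker of recent stimulation. It was at 3.70 and 3.46 CPM in WT before adhesion, 8.02 and 13.1 CPM in WT after adhesion, 8.60 and 7.39 CPM in E6 before adhesion and 14.8 and 9.86 CPM in E6 after adhesion. Both WT libraries before adhesion were the lowest of the 8, and in each cell type the libraries after adhesion lay above those before. The averaged log2 FC after adhesion was 1.10 ± 0.21 (SE) with an FDR of 0.0521 in edgeR's test, just outside the threshold, and it was inside with RLE size factors (FDR 0.0484), the GC correction (FDR 0.0257), culture time as a term (FDR 0.0445) and in DESeq2's test (FDR 0.000458). It was outside with the replicate block (FDR 0.0988), with no filter on low counts (FDR 0.0729) and in 6 of the 8 fits without 1 library (FDR up to 0.248), and inside in the 2 fits without a WT library after adhesion. The log2 FC was 1.57 in WT (FDR 0.258) and 0.63 in E6 (FDR 0.815), and with each library left out it ran from 1.14 to 1.86 in WT and from 0.30 to 0.89 in E6. Without adhesion *Fos* was 2.22-fold higher in E6 than in WT, with an FDR of 0.0782, and DE in DESeq2's test with an FDR of 0.0197. It was also DE by edgeR with only the 4 libraries compared, where 1457 of 11157 tested genes were.

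*Fosb* (chromosome 7, 19302696 to 19310051, minus strand), a close relative of *Fos* that carries its own activation domain, differed in direction between the cell types. It was at 6.25 and 7.37 CPM in WT before adhesion and 8.16 and 9.0 CPM after. In E6 it was at 17.9 and 23.4 CPM before adhesion and 14.97 and 10.04 CPM after. Both E6 libraries before adhesion lay above every other library, and both after adhesion lay below them. *Fosb* was 3.04-fold higher in E6 than in WT before adhesion (log2 FC 1.60 ± 0.24, FDR 0.0152 in edgeR's test). This call was lost when any of the 4 libraries compared was left out, with FDR values up to 0.170, while the log2 FC stayed between 1.39 and 1.78. The adhesion log2 FC was 0.34 in WT (FDR 0.635 in edgeR's test) and -0.72 in E6 (FDR 0.365), and their difference was -1.06 (FDR 0.988).

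*Fosl1* (chromosome 19, 5447547 to 5455946, plus strand) encodes Fra-1, a Fos family protein without the activation domain of *Fos* and common in epithelial cells. Its levels were 112 and 106 CPM in WT before adhesion, 239.9 and 123 CPM in WT after adhesion, 212 and 199 CPM in E6 before adhesion and 182 and 203 CPM in E6 after adhesion. The WT libraries before adhesion were the lowest, and replicate 2 of WT after adhesion lay close to them. The adhesion log2 FC in WT was 0.73 with both libraries and 0.17 without replicate 1, the library that under-counted GC-rich genes. After the GC correction replicate 1 stood at 329 CPM, and the log2 FC with both libraries was 1.03. *Fosl1* was 1.88-fold higher in E6 than in WT before adhesion, with an FDR of 0.103 in edgeR's test and of 0.0237 in DESeq2's. With only the 4 libraries compared, edgeR called it DE, as it did 1457 of 11157 tested genes. Counted per kilobase of transcript and summed with *Fosl2*, *Fosl1* made up 76.2% to 89.9% of the Fos family level in every library, while *Fos* made up 2.34% to 7.16%.

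The Jun family provides the partners of Fos proteins in AP-1, and *Jun* (chromosome 4, 95049034 to 95052222, minus strand) is its most strongly activating member. Its levels were 48.1 and 53.3 CPM in WT before adhesion, 122 and 140.2 CPM in WT after adhesion, 91.4 and 107 CPM in E6 before adhesion and 78.7 and 95.7 CPM in E6 after adhesion. The WT libraries were the lowest of all before adhesion and the highest of all after, and the E6 libraries lay between and overlapped each other. In WT the log2 FC was 1.37 ± 0.15 (2.59-fold), with an FDR of 0.216 in edgeR's test, and was DE in DESeq2's test. In E6 it was -0.19 ± 0.15, with an FDR of 1 in edgeR's test. The difference of the adhesion effects was -1.56 ± 0.21, with an FDR of 0.988 by edgeR and of 2.74e-05 by DESeq2.

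The averaged adhesion effect on *Jun* was 0.59 ± 0.11 (1.51-fold, FDR 0.0415), the mean of 1.37 in WT and -0.19 in E6. With libraries left out in turn, the call held once in 8 fits, without replicate 1 of WT after adhesion (log2 FC 0.65). Without replicate 2 of WT after adhesion its log2 FC of 0.54 was under the FC limit, and without any of the other 6 libraries the FDR rose to between 0.116 and 0.230. Between the cell types *Jun* was 1.96-fold higher in E6 before adhesion (log2 FC 0.97 ± 0.15, FDR 0.0162), a call lost when any of the 4 libraries compared was left out, with log2 FC values from 0.85 to 1.08. After adhesion it was 1.51-fold lower in E6 (log2 FC -0.59 ± 0.15, FDR 0.0485). That call was lost in 7 of the 8 fits without 1 library, where the log2 FC was -0.74 to -0.45, and stood without replicate 1 of WT after adhesion, with -0.65. It was also lost with RLE size factors (FDR 0.0521) and in DESeq2's test, where the log2 FC of -0.58 was under the FC limit.

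*Junb* (chromosome 8, 84974484 to 84978718, minus strand), which can dampen the activity of *Jun*, was the best counted of the 10. Its levels were 215 and 269.7 CPM in WT before adhesion, 148 and 447 CPM in WT after adhesion, 317 and 238 CPM in E6 before adhesion and 374 and 400.1 CPM in E6 after adhesion. The 2 WT libraries after adhesion were the lowest and the highest of all 8, and after the GC correction replicate 1 stood at 211 CPM. The log2 FC in WT was 0.30 ± 0.44 with both, 0.88 without replicate 1 and -0.72 without replicate 2, so 1 library decides its direction. In E6 both libraries after adhesion lay above both before, with a log2 FC of 0.48 ± 0.44 and an FDR of 1 in edgeR's test. Per kilobase and with *Jund*, *Jun* made up 7.26% of the Jun family level in WT before adhesion, 16% in WT after, 12.1% in E6 before and 9.09% in E6 after adhesion (means of 2 libraries).

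**Figure D2:**
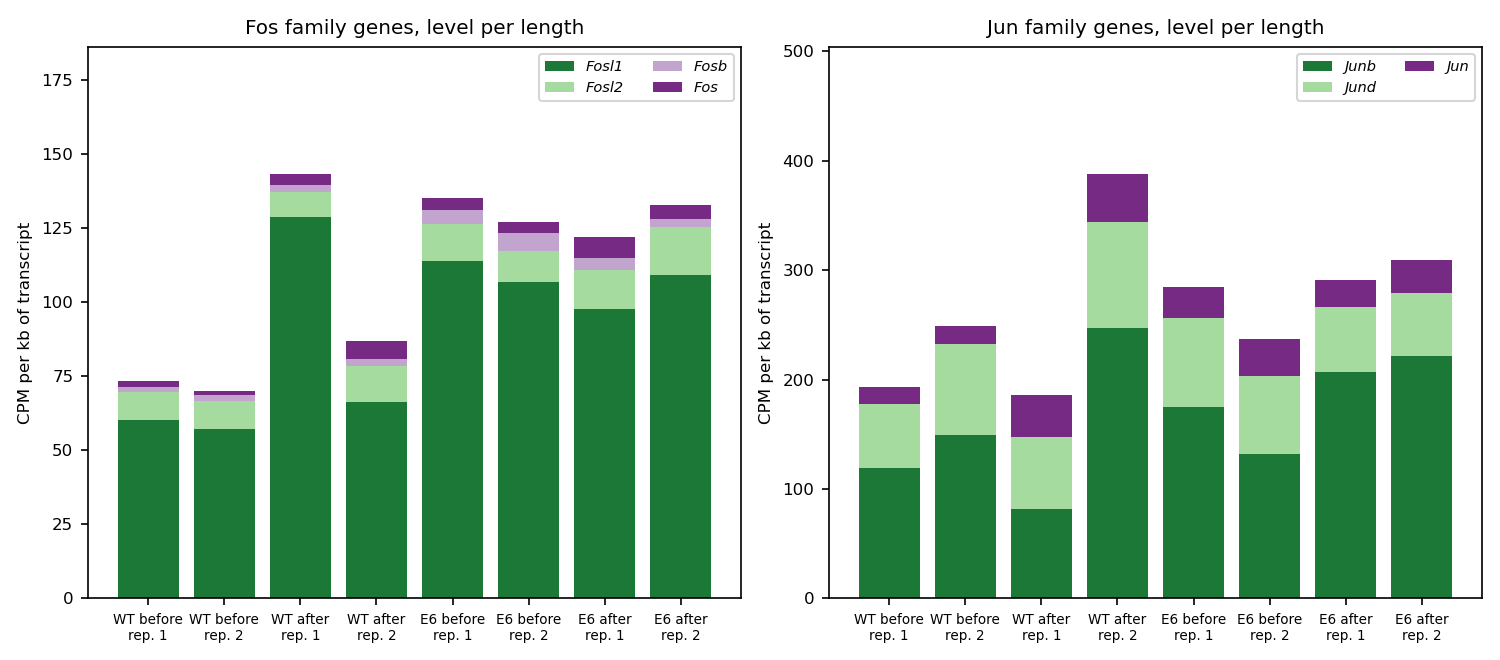
Levels of the Fos family (left) and Jun family (right) genes in CPM per kilobase of transcript, stacked by gene for each library, with axes from 0. *Fosl1* fills 76.2% to 89.9% of each Fos family bar and *Junb* 44.1% to 71.5% of each Jun family bar.

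*Atf3* (chromosome 1, 191170296 to 191218039, minus strand) encodes a stress-induced repressor that can also pair with Jun proteins. Its levels were 15.2 and 11.1 CPM in WT before adhesion, 16.7 and 30.6 CPM in WT after adhesion, 28.2 and 12.7 CPM in E6 before adhesion and 13.5 and 18.3 CPM in E6 after adhesion. The replicates differed by 1.83-fold in WT after adhesion and by 2.22-fold in E6 before adhesion. In the fits of all 8 libraries no comparison passed the test for *Atf3*. Its adhesion log2 FC was 0.85 ± 0.43 in WT (FDR 0.620 in edgeR's test) and -0.35 ± 0.43 in E6, where it was 0.32 without replicate 1 before adhesion.

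*Egr1* (chromosome 18, 34859823 to 34864984, plus strand) encodes a zinc finger factor that is induced through serum response factor by growth factors and adhesion. It was at 112 CPM in both WT libraries before adhesion, 336 and 169 CPM in WT after adhesion, 190.2 and 97.4 CPM in E6 before adhesion and 179.8 and 139 CPM in E6 after adhesion. Both WT libraries after adhesion lay above both before, and the E6 libraries overlapped. The log2 FC in WT was 1.17 ± 0.39 (2.25-fold, FDR 0.620 in edgeR's test) and 1.44 after the GC correction. Without replicate 1 after adhesion it was 0.59, and without replicate 2 it was 1.57. In E6 it was 0.15 ± 0.38, and the difference of the adhesion effects was -1.02 ± 0.54 (FDR 0.988).

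*Ier2* (chromosome 8, 84661331 to 84662852, minus strand), which encodes a small nuclear protein, passed the test in no comparison with all 8 libraries. It was at 63.6 and 75.8 CPM in WT before adhesion, 64.8 and 106 CPM in WT after adhesion, 93.0 and 73.8 CPM in E6 before adhesion and 96.4 and 86.6 CPM in E6 after adhesion. Its libraries overlapped in each comparison of adhesion or cell type, with log2 FC values from 0.10 to 0.30, and its log2 FC in WT turned to -0.11 without replicate 2 after adhesion. *Ier3* (chromosome 17, 35821684 to 35822923, plus strand), whose product is linked to survival under stress, was at 155 and 163 CPM in WT before adhesion, 181 and 237 CPM in WT after adhesion, 218 and 167 CPM in E6 before adhesion and 299.6 and 242 CPM in E6 after adhesion. In both cell types its libraries after adhesion lay above those before, and in both conditions its E6 libraries lay above those of WT, by 1.21-fold before and 1.296-fold after adhesion in the fit, without passing the test. The adhesion log2 FC was 0.39 ± 0.19 in WT (FDR 0.620 in edgeR's test) and 0.49 ± 0.19 in E6 (FDR 0.603), and the 2 differed by 0.10 ± 0.27.

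*Dusp1* (chromosome 17, 26505590 to 26562128, minus strand), the feedback phosphatase, had the highest adhesion log2 FC of the 10 in both cell types with all libraries. In WT without replicate 2 after adhesion, it (1.37) stood below *Egr1* (1.57). In E6 without replicate 2 after adhesion, it (0.65) stood below *Fos* (0.89). It was at 15 and 15.3 CPM in WT before adhesion, 39.5 and 103 CPM in WT after adhesion, 22.3 and 19.2 CPM in E6 before adhesion and 32.5 and 60.3 CPM in E6 after adhesion. It was the single member in which all 4 libraries after adhesion lay above all 4 before, which was also so for 3.82% of tested genes. The averaged log2 FC was 1.70 ± 0.32 (3.25-fold) with an FDR of 0.0504 in edgeR's test, just outside the threshold. It was inside with RLE size factors (FDR 0.0484), with the GC correction (FDR 0.0199) and in DESeq2's test (FDR 2.7e-06). It was outside with the replicate block (FDR 0.0594), with no filter on low counts (FDR 0.0727), with culture time as a term (FDR 0.104) and in 6 of the 8 fits without 1 library (FDR up to 0.249), and inside in the 2 fits without a WT library after adhesion. The log2 FC was 2.24 ± 0.47 in WT (4.72-fold, FDR 0.311) and 1.16 ± 0.45 in E6 (2.24-fold, FDR 0.603), and the difference was -1.08 ± 0.64 (FDR 0.988). The log2 FC in WT was 2.76 without replicate 1 after adhesion and 1.37 without replicate 2, and in E6 it ran from 0.65 to 1.54 with each library left out.

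**Figure D3:**
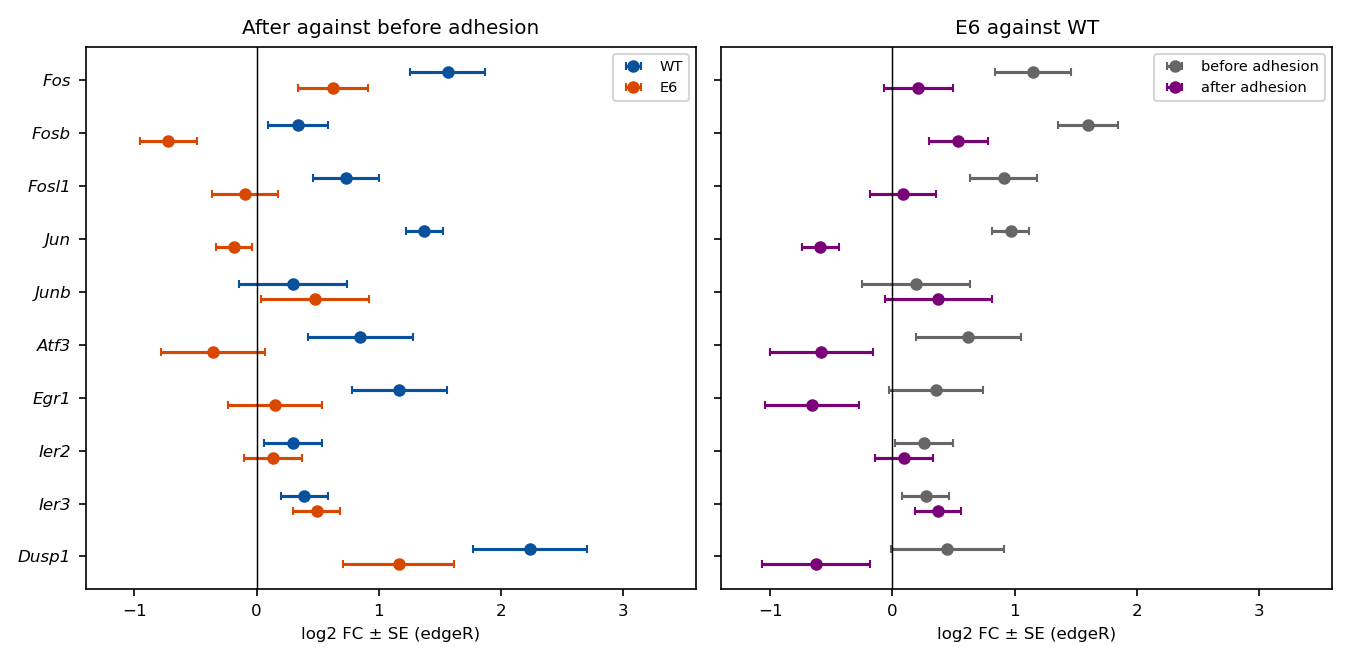
Log2 FC of each gene with its SE from edgeR, on the left after against before adhesion in WT (blue) and E6 (orange), on the right E6 against WT before (grey) and after adhesion (purple). *Jun* stands at 1.37 in WT and -0.19 in E6 on the left, and at 0.97 before and -0.59 after adhesion on the right, while *Dusp1* is above 0 in both cell types on the left.

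The order of the members by level was nearly the same without and with adhesion. Per kilobase of transcript, the order in WT before adhesion was *Ier3* (141 CPM per kb), *Junb* (134), *Fosl1* (58.6), *Ier2* (45.8), *Egr1* (25.0), *Jun* (15.9), *Dusp1* (7.62), *Atf3* (6.65), *Fosb* (1.80) and *Fos* (1.70). The libraries of *Ier3* and *Junb*, of *Dusp1* and *Atf3*, and of *Fosb* and *Fos* overlapped, and the other neighbours did not. In WT after adhesion *Egr1* (56.3 CPM per kb) and *Ier2* (56.2) changed places, as did *Fos* and *Fosb*. The libraries of the first 7 genes there overlapped from each to the next, and *Dusp1* stood at 35.9 CPM per kb, near *Jun* at 41.1. In E6 *Fos* and *Fosb*, the lowest in each condition, were the members that changed places. There *Ier3* and *Junb* also led and overlapped each other, before adhesion at 170.3 and 153 and after adhesion at 239 and 214 CPM per kb.

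The members called in WT depended on which library after adhesion was used. Without replicate 1, 6 members were DE in WT, all higher, namely *Atf3*, *Dusp1*, *Fos*, *Ier2*, *Jun* and *Junb*, where 1.74% of tested genes were DE. Without replicate 2, 6 were DE where 29.8% of tested genes were, with *Dusp1*, *Egr1*, *Fos*, *Fosl1* and *Jun* higher and *Junb* lower. In WT the log2 FC without replicate 1 was 2.76 for *Dusp1*, 1.86 for *Fos* and 1.47 for *Jun*. Without replicate 2 these values were 1.37, 1.14 and 1.26. Both fits leave a lone WT library after adhesion, which was assumed to vary like the other conditions. With both libraries no member was DE in WT by edgeR. Replicate 1 had 12 h of culture and replicate 2 had 24 h, so library quality and culture time cannot be told apart in WT. With culture time as a term, chosen after seeing the data, the log2 FC averaged over the cell types was 0.93 for *Fos* (FDR 0.0445), 0.62 for *Jun* (FDR 0.0694) and 1.64 for *Dusp1* (FDR 0.104). Among the 5 libraries with 12 h of culture the averaged log2 FC was 0.79 for *Fos*, 0.56 for *Jun* and 1.52 for *Dusp1*, given without a test.

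**Figure D4:**
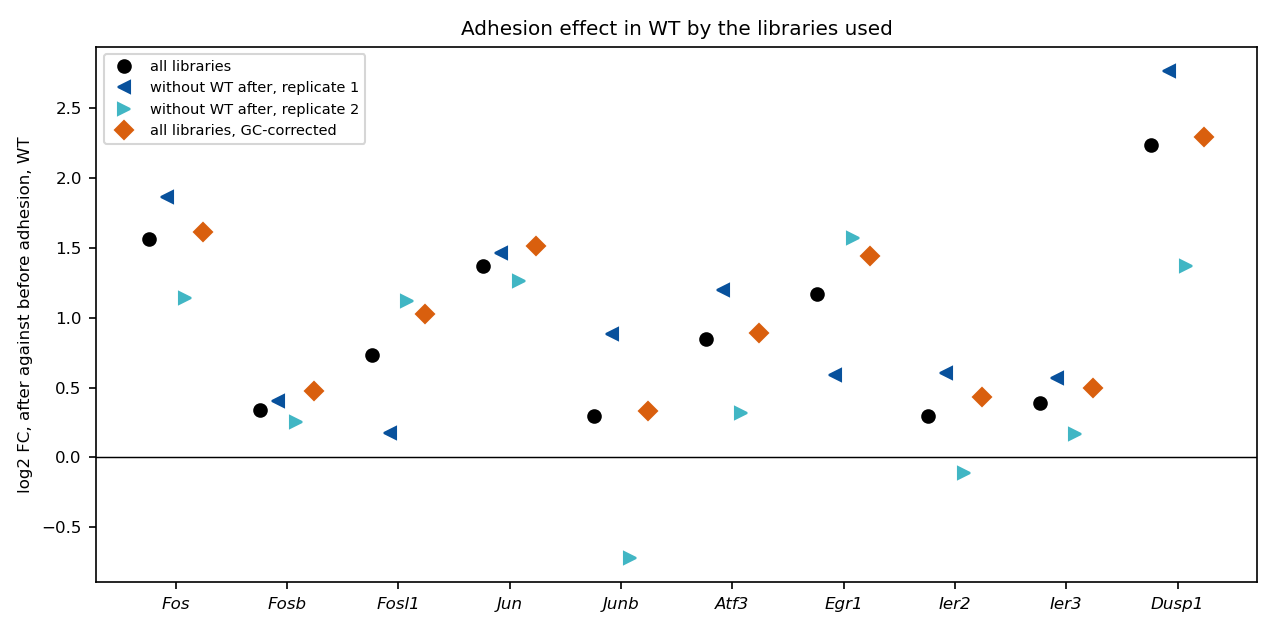
Log2 FC after against before adhesion in WT for each gene with all libraries (black), without replicate 1 (dark blue) or replicate 2 (light blue) after adhesion, and after the GC correction (orange). *Fos*, *Jun* and *Dusp1* stay above 1 in all 4, *Egr1* and *Fosl1* are lower without replicate 1 (0.59 and 0.17), and *Junb* runs from 0.88 without replicate 1 to -0.72 without replicate 2.

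Thymocytes also express immediate early genes, and some of their RNA was present after adhesion. Of 24 thymocyte markers 15 were used and 9, among them *Cd3e*, *Cd4*, *Cd8a* and *Rag1*, are not analysed here. Their summed level was 1.21 to 1.40 CPM in WT before adhesion, 13.9 to 17.1 CPM in WT after adhesion, 1.87 to 3.19 CPM in E6 before adhesion and 87.5 to 106 CPM in E6 after adhesion. All 15 had a count in at least 1 library of each cell type after adhesion, and 9 of 15 were at 0 in both libraries before adhesion in each cell type. *Ptprc*, which encodes CD45 of white blood cells, was at 2.20 and 1.98 CPM in WT after adhesion and at 18.3 and 14.0 CPM in E6 after adhesion. The summed level of 6 myeloid markers was 59.0 to 66.2 CPM in WT before adhesion and 41.2 to 59.0 CPM in WT after adhesion. In E6 it was 42.2 to 54.9 CPM before adhesion and 52.0 to 53.5 CPM after. This sum did not rise above the levels before, but it does not stand for each marker. Most of the sum was *Csf1r*, at 39.2 to 65.9 CPM in the 8 libraries. *Lyz2* was at 0 before adhesion, at 0.851 and 1.16 CPM in WT after and at 6.52 and 5.26 CPM in E6 after. Of the 6 markers, 1 or 2 had more than 3 counts in each library before adhesion, and 5 or 6 in each library after. The part of thymocyte RNA in the levels of the 10 genes after adhesion was not tested, and in these bulk libraries fewer cells of a type cannot be told apart from less RNA per cell.

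Of 30 further immediate early and early response genes 27 were tested (*Egr3*, *Egr4* and *Nr4a3* had too few counts), and 3 rose in the averaged adhesion comparison, by edgeR and by DESeq2, where 1.79% of all tested genes did. *Zfp36*, whose product degrades cytokine and immediate early mRNAs, rose 2.14-fold (log2 FC 1.09 ± 0.12, FDR 0.00748). It was at 30.1 and 38.0 CPM in WT before adhesion, 58.5 and 76.2 CPM in WT after adhesion, 32.9 and 31.7 CPM in E6 before adhesion and 73.8 and 75.1 CPM in E6 after adhesion, so all 4 libraries after adhesion lay above all 4 before. *Egr2*, a relative of *Egr1*, rose from 6 to 8 counts to 23 to 55 counts per library (log2 FC 2.24 ± 0.28, FDR 0.0109), and *Trib1*, which encodes a pseudokinase, rose 1.70-fold (FDR 0.0449). The calls of *Egr2* and *Zfp36* were kept in 3 and 5 of the 8 fits without 1 library, and that of *Trib1* in 2. In WT edgeR called none of these 27, while 10 were higher at an unadjusted p under 0.05, as were 5.57% of tested genes, and DESeq2 called *Egr2*, *Trib1* and *Zfp36*. In E6 *Zfp36* (2.30-fold, FDR 0.0164) and *Klf10* (1.60-fold, FDR 0.0389), a TGF-beta early response factor, rose, where 1.93% of tested genes rose, and these calls held in 4 and 2 of the 8 fits without 1 library. The median log2 FC of the 27 was 0.28 in WT and 0.13 in E6.

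Kinases and factors upstream of these genes, and their inhibitors, were counted in the same way. None of 21 MAP kinases and promoter factors and none of 13 feedback inhibitors was DE in the averaged adhesion comparison, by edgeR or by DESeq2, where 1.89% and 2.89% of tested genes were. At an unadjusted p under 0.05 there were 3 and 3, against 9.89% of tested genes. In E6 edgeR called none of either list after adhesion, where 2% of tested genes were DE. DESeq2 called the feedback inhibitor *Dusp6* there, and 2.54% of tested genes. In edgeR's fit its log2 FC in E6 was 0.73 ± 0.19. The serum response factor gene *Srf* stood between 47.6 and 57.6 CPM in all libraries. Between E6 and WT before adhesion *Dusp5* and *Dusp10*, which encode other MAP kinase phosphatases, were 3.22-fold and 1.79-fold higher in E6 (FDR 0.00601 and 0.0435). *Map2k6* was lower and DE, on 0 and 1 counts in E6 and 15 and 7 counts in WT. After adhesion *Dusp5* was 2.79-fold higher and *Spry1* lower (log2 FC -0.95, FDR 0.0177). *Dusp5*, *Dusp6*, *Dusp10*, *Map2k6* and *Spry1* were chosen after their values were seen.

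Of 13 other AP-1 and small Maf factors 10 were tested. None was DE in the adhesion comparisons by edgeR or DESeq2, with 2 at an unadjusted p under 0.05 in the averaged comparison (9.89% of tested genes), 1 in WT (7.48%) and 0 in E6 (6.97%), so these counts are near those of all tested genes. *Mafk*, a small Maf gene chosen after its values were seen, was higher in E6 before adhesion (1.67-fold) and after adhesion (1.65-fold). Of 12 known AP-1 target genes 10 were tested. *Lif*, which encodes a cytokine, rose in the averaged comparison (1.60-fold, FDR 0.0240) and in E6 (1.86-fold, FDR 0.0300), from 86.0 and 65.5 CPM before to 146 and 135 CPM after adhesion there. These calls held in 3 and 2 of the 8 fits without 1 library. Between E6 and WT, at an unadjusted p under 0.05, 6 of the 10 were higher before adhesion and 9 after, against 11% and 14.5% of tested genes, and 0 were lower, against 10.6% and 15.2%. *Hbegf*, an EGF receptor ligand named after its values were seen, was higher in E6 before (2.20-fold) and after adhesion (2.14-fold). The median log2 FC of the 10 was 0.52 before and 0.75 after adhesion, against -0.00 and -0.02 over all tested genes. This list, like the others above, was chosen with earlier results of these data known. Its counts and medians therefore describe these genes and do not test them as a set.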

How the data were processed

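RNA-Seq was performed by the authors on 8 libraries of mTEC 3.10 cells in 4 conditions, 2 libraries each. The authors aligned reads to mm10 (GRCm38) with STAR 2.5.0a and deposited raw HTSeq counts of reads per gene symbol, without normalization. The submitters' processing notes also name DESeq2. The annotation and the strand setting are not given in the sources used here. In replicate 1 of E6 before adhesion 18 symbols turned into dates were restored by gene order. Samples were grouped by title and source name. The protocol text of the E6 libraries before adhesion mentions thymocytes, against both.

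Counts (13506610 to 20145154 per library on genes, median 16312268.5) were tested in edgeR 4.0.16 under R 4.3.3. Genes passed filterByExpr by condition, TMM factors were 0.938 to 1.03, and the quasi-likelihood fit gave each condition its own mean over the 8 libraries. DE mRNAs had an FDR under 0.05 over 11672 genes and an FC of at least 1.5. The SE is the absolute log2 FC divided by the square root of F. Lengths, GC content (known for 99.4% of tested genes) and positions came from GENCODE vM21 on GRCm38, by the longest protein-coding transcript. Of the symbols 22740 matched directly, 934 by an older symbol and 378 not at all. Alternatives were RLE size factors, the Wald test of DESeq2 1.42.0, no filter on low counts, no FC limit, a replicate block, fits of only the 4 libraries compared, a GC correction (lowess span 0.3, limma 3.58.1) alone or with the block, and each library left out. Culture time as a term and the 5 libraries with 12 h of culture were added after seeing the data. The fits were tested on simulated data. Python 3.11.15 with pandas 2.3.3, numpy 2.4.6 and matplotlib 3.10.9 made summaries and figures.

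The 10 genes and all gene lists were chosen with earlier results of these data known. All 10 are named, and of the other lists those genes DE in the averaged adhesion comparison or in E6, at most 6 per list. Other names were chosen after their values were seen, as said beside them. Isoforms and RT-qPCR were not used here, and results of some other genes are not reported here.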

Additional observations from a re-analysis of the deposited data

Results flagged for a closer look

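*Fosb* drew attention because its libraries moved in opposite directions in the 2 cell types. Both WT libraries after adhesion (8.16 and 9.0 CPM) lay above both before (6.25 and 7.37 CPM), and both E6 libraries after adhesion (14.97 and 10.04 CPM) lay below both before (17.9 and 23.4 CPM). The adhesion effect in E6 minus that in WT was -1.06 on the log2 scale, with an unadjusted p of 0.0155 and an FDR of 0.988 in edgeR's test of the difference. It was between -1.38 and -0.80 when each library was left out in turn. Without replicate 1 of WT after adhesion it was -1.11, and without replicate 2 it was -0.98.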

How the results depend on the processing

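There were 2 libraries per condition, and 1 of the 8 (replicate 1 of WT after adhesion) carried a GC bias. Of the recomputed log2 FC values of the 10 genes, 44 changed sign and 838 counted as unchanged. Unchanged means the same direction and side of the threshold. With 12 h libraries only, where no test was made, it means the same direction and a shift of at most 1 SE. The others kept their direction but gained or lost a call, or shifted by more than 1 SE with 12 h libraries only.

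Members DE, 1 in the averaged adhesion comparison, numbered 3 with RLE size factors, DESeq2, the GC correction and the GC correction with the replicate block, and 0 with no filter on low counts. In WT they were 3 with DESeq2 and in E6 3 with only the 4 libraries compared. Before adhesion (2) they were 4 with DESeq2 or only the 4 libraries, and after adhesion (1) 0 with RLE size factors, DESeq2, no filter, only the 4 libraries or culture time as a term. For the difference DESeq2 gave 1. All tested genes DE (221 averaged) were 337 with DESeq2, 139 with the replicate block and 124 with culture time. In WT (0) DESeq2 gave 64. In E6 (234) the block gave 132, the 4 libraries 537 and culture time 142. Before adhesion (585) the block gave 383, the GC correction 932, the 4 libraries 1457 and culture time 345. After adhesion (1040) the 4 libraries gave 0, and for the difference (0) DESeq2 gave 3.

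With each library left out, members DE ranged from 0 to 4 (averaged), 0 to 6 (WT), 0 to 3 (E6), 0 to 5 (before), 0 to 5 (after) and 0 to 5 (difference), and tested genes DE from 39 to 1341, 0 to 3550, 0 to 643, 37 to 1512, 27 to 4500 and 0 to 3049.

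The replicate numbers do not pair the samples by their labels. Deviations from the condition means correlated at 0.222 between WT before and after adhesion (0.0198 after the GC correction) and at -0.079 to 0.023 between the other conditions. The replicate block changed no call on the 10 genes, with *Jun* at 0.59 in the averaged comparison and -0.59 after adhesion.

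The log2 FC changed sign under these settings, where the cause was not tested. With 12 h libraries only it was, for *Junb*, -0.72 in WT and -0.025 before adhesion, for *Ier2* -0.11 in WT and 0.36 for the difference, for *Fosl1* 0.045 in E6 and -0.21 after adhesion, for *Atf3* 0.55 in E6, -0.068 before, 0.16 after and 0.23 for the difference, for *Egr1* -0.20 before, and for *Dusp1* 0.64 after and 0.29 for the difference. With culture time as a term it was -0.15 in WT and -0.13 before adhesion for *Junb* and 0.083 for the difference in *Ier2*. With the GC correction it was -0.23 for *Fosl1* and -0.047 for *Ier2* after adhesion (-0.12 and -0.0496 with the block). With each library left out it ran from -0.11 to 0.70 for *Junb* and from -0.0002 to 0.58 for *Atf3* averaged, from -0.72 to 0.88 for *Junb* and from -0.11 to 0.61 for *Ier2* in WT, and from -0.26 to 0.71 for *Egr1*, -0.83 to 0.32 for *Atf3* and -0.026 to 0.31 for *Ier2* in E6. Before adhesion it ran from -0.024 to 0.39 for *Junb*, -0.20 to 0.76 for *Egr1* and -0.055 to 1.09 for *Atf3*. After adhesion it ran from -0.11 to 0.64 for *Fos*, -0.29 to 0.67 for *Fosl1*, -0.18 to 1.41 for *Junb*, -0.18 to 0.52 for *Ier2* and -1.14 to 0.26 for *Dusp1*. For the difference it ran from -0.37 to 1.21 for *Junb*, -0.44 to 0.26 for *Ier2* and -0.076 to 0.33 for *Ier3*.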
